A study of Mus musculus and Homo sapiens with 4 samples.

Results

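The genes described here are 10 genes of the osteoblast lineage, RUNX2, SP7, DLX5, ALPL, PHEX, PTH1R, BGLAP, IBSP, SPP1 and DMP1. Their members on the arrays were all probe sets whose platform symbol is one of these names, in either letter case. In the mouse osteosarcoma line LM8, 7 of the 10 genes had such a probe set, with 11 of 45037 non-control probe sets and 7 of 18193 named genes. Runx2, Spp1 and Bglap were not analysed here in LM8. In the human melanoma line A375M, taken as a contrast from outside the osteoblast lineage, 9 of the 10 genes had 19 of 54613 probe sets. BGLAP was listed there only on a probe set that also carries PMF1 and PMF1-BGLAP, which therefore names no gene.

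The study measured 4 Affymetrix arrays, 1 for each of 4 groups, and asked how the knock-down of Merm1 changes expression in tumour cells. LM8 is a metastatic subline of a mouse osteosarcoma and A375M a metastatic subline of a human melanoma, both established cell lines. The LM8 control and A375M control cells were stably infected with the retroviral vector pSIREN-RetroQ-control. The LM8 knock-down cells carried pSIREN-RetroQ-mouse Merm1/Wbscr22 and the A375M knock-down cells pSIREN-RetroQ-human Merm1/Wbscr22, which express a hairpin RNA against Merm1 (Wbscr22, now Bud23), a methyltransferase of ribosomal RNA. All 4 groups thus share the vector backbone and the infection. Whether a knock-down line was 1 clone or a pool is not stated in the labels.

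Osteoblasts are the cells that lay down bone. Their lineage depends on the transcription factor RUNX2 and, downstream of it, on SP7 (osterix), while the homeodomain factor DLX5 acts in the same program. Maturing osteoblasts carry the alkaline phosphatase ALPL and the parathyroid hormone receptor PTH1R, secrete the matrix proteins IBSP, SPP1 and BGLAP, and as they become osteocytes express DMP1 and PHEX. Osteosarcoma is a bone-forming tumour that often retains part of this program.

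The sequences before the transcription starts of the measured members are shown to place these genes in their regulatory context, and no data on binding or chromatin accompany them here. RefSeq's promoter table for mouse (GRCm38.p6) held 9 starts of 5 of the 7 genes measured in LM8, each with 250 bases before and 50 after the start. It held no entry for Sp7 or Dlx5. For each gene the start with the most kinds of motif, and among equals the most matches, is printed, 5′ to 3′ along the gene. This choice favours windows that hold matches. The windows were chr4:137796335-137796634 (minus strand) for Alpl, chrX:157415237-157415536 (minus strand) for Phex, chr9:110747096-110747395 (minus strand) for Pth1r, chr5:104299037-104299336 (plus strand) for Ibsp and chr5:104202367-104202666 (plus strand) for Dmp1. Capitals mark any of 5 motifs on either strand.
Alpl: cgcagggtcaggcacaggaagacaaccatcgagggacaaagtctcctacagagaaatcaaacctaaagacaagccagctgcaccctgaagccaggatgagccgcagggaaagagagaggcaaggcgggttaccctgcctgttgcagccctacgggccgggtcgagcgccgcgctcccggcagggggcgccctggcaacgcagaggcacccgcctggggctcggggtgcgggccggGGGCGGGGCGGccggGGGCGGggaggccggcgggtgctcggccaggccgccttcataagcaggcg
Phex: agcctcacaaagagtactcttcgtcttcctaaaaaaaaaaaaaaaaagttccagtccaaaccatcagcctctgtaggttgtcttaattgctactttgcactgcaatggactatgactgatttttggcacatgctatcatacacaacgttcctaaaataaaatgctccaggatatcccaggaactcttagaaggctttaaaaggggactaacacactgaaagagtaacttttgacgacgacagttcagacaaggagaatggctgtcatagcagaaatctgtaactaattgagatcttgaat
Pth1r: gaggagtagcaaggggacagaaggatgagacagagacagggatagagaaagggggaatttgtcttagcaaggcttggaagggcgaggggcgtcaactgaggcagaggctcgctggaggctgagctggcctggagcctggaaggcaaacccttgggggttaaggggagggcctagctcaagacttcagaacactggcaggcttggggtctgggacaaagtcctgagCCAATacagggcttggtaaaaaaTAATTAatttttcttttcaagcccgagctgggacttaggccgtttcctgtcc
Ibsp: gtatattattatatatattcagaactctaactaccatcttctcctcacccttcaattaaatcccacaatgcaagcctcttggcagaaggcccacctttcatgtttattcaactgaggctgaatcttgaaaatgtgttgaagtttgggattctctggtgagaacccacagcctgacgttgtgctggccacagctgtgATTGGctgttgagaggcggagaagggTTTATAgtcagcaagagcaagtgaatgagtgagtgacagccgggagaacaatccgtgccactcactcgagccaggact
Dmp1: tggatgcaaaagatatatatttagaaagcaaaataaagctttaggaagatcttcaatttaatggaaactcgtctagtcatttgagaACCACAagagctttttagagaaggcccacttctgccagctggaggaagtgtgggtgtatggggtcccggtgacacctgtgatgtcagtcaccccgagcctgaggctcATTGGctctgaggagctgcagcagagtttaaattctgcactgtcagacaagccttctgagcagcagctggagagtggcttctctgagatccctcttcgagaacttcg

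The motifs searched were the RUNX core TGTGGT, which reads ACCACA on the other strand, the homeodomain core TAATTA, the CCAAT box CCAAT or its reverse complement ATTGG, the TATA box TATAAA or its reverse complement TTTATA, and the GC box GGGCGG or its reverse complement CCGCCC. No 2 of these motifs overlapped in the printed windows, but copies of the GC box did in Alpl. Ibsp held ATTGG at -54 and TTTATA at -28, counted from the start site. Dmp1 held ACCACA at -164 and ATTGG at -57, Pth1r held CCAAT at -25 and TAATTA at -2, and Alpl held GGGCGG at -15, -10 and 1. The Phex window held none of the letters searched. The other Dmp1 start held no RUNX core, and the other Pth1r starts held no homeodomain core. Of the 32851 promoters of the table, 16.8% held the RUNX core, 5.29% the homeodomain core and 37.4% the CCAAT box. The TATA box was in 13.6% and the GC box in 35.7%. The printed windows were chosen by their motifs and these promoters were not, so the shares are no baseline for them. A match describes letters and not a bound site.

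All values below are RMA expression values on the log2 scale, and each difference is the knock-down value minus the control value within 1 line. With 1 array per group there was no replicate check, no test and no p-value, and precision is limited by the number of arrays. Bud23, the targeted gene, read 10.61 in LM8 under control and 8.48 after knock-down, and the bright BUD23 probe set read 10.70 and 8.38 in A375M. Spike-in transcripts added before labelling had a median difference of 0.14 in LM8 (27 probe sets, -0.19 to 0.25) and 0.017 in A375M (27, -0.033 to 0.31), and those added at hybridisation had -0.00045 and 0.056 (18 each). The 3′ minus 5′ difference of the actin control probe sets was 0.35 and 0.34 in the LM8 control and knock-down arrays and 0.91 and 1.00 in the A375M arrays. A gene was represented by its brightest probe set and was kept when that value exceeded the array median in at least 1 array (median 5.29 and 5.28 in LM8, 4.64 and 4.67 in A375M). Disagreement between probe sets was gauged by the SD among kept probe sets of the same gene. This SD had a median of 0.12 over 5313 LM8 genes and 0.071 over 6265 A375M genes. Its upper percentile was 0.28 in LM8 and 0.20 in A375M. The gauge holds no spread between cultures, and no variation between arrays that the probe sets of a gene share. In A375M 45.4% of all probe sets were identical in both arrays, and their part in the value of 0.071 was not tested.

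In LM8 all 7 measured members lay above the array median in both arrays, as did 61.8% of all 18193 named genes on their brightest probe sets. No member differed by 1.5-fold or more between control and knock-down. Among kept LM8 genes 2.47% differed by at least 1.5-fold and 0.472% by at least 2-fold, so a count of 0 of 7 is close to that background. Phex, Ibsp and Alpl read higher in the knock-down array, and Dlx5, Pth1r, Sp7 and Dmp1 read lower. That is 3 of 7 higher, against 53.8% of all kept genes. The median difference of the 7 was -0.095, beside 0.015 for all 11646 kept genes. The 5th to 95th percentiles of kept genes were -0.33 and 0.34, and Phex was the member outside that range.

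**Figure D1:**
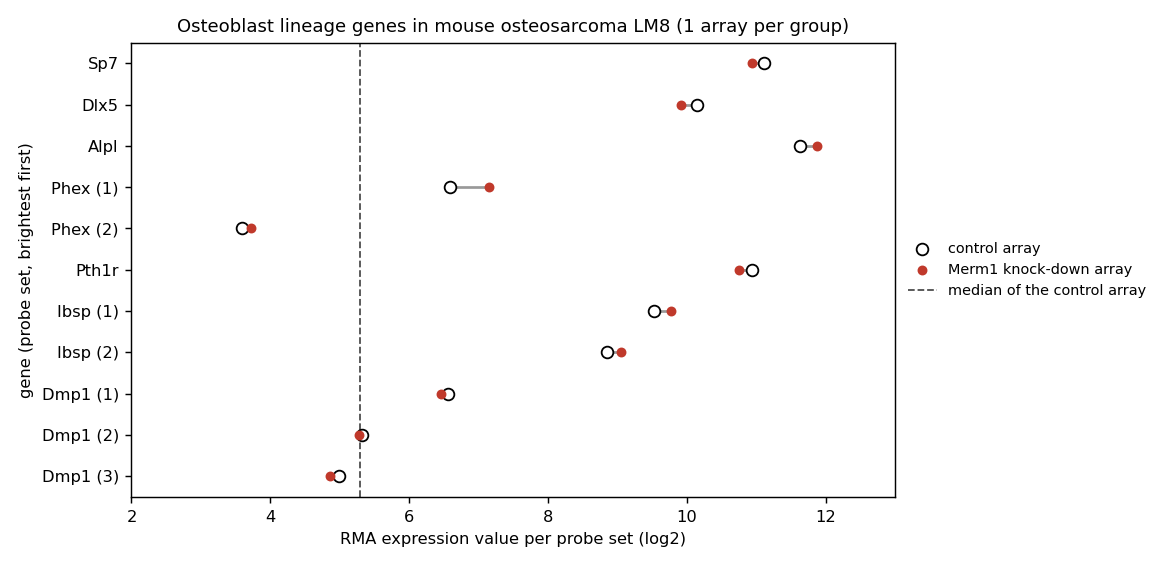
RMA expression value (log2) on the horizontal axis for each of the 11 LM8 probe sets of 7 osteoblast lineage genes, with an open circle for the control array, a filled circle for the knock-down array and a dashed line at the median of the control array (5.29). Sp7, Dlx5, Alpl, Pth1r and Ibsp lie far to the right of the line in both arrays, and the second Phex probe set and the third Dmp1 probe set lie to its left.

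The transcription factor genes measured among the members in LM8, Sp7 and Dlx5, read slightly lower in the knock-down array. Sp7, which encodes the zinc finger factor osterix that is needed for osteoblast formation, read 11.11 under control and 10.94 after knock-down, a difference of -0.17 or 1.13-fold lower. Dlx5, which encodes a homeodomain factor of skeletal development, read 10.14 and 9.91, a difference of -0.23 or 1.17-fold lower. Each was measured by 1 probe set, and both were bright, at the 94.3 percentile of the knock-down array for Sp7 and the 89.1 percentile for Dlx5. Both differences exceeded the median SD between probe sets of 0.12 but not its upper percentile of 0.28. Both lay between the 5th and 95th percentiles of kept genes. The LM8 spike-ins added before labelling moved the other way by a median of 0.14, and their part in these differences was not tested.

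Of the enzymes, the bright Alpl probe set and both Phex probe sets read higher in the knock-down array. Alpl encodes tissue-nonspecific alkaline phosphatase, which splits the mineralization inhibitor pyrophosphate. It read 11.63 under control and 11.88 after knock-down, a difference of 0.25 or 1.19-fold higher. Phex encodes a membrane endopeptidase whose loss causes X-linked hypophosphatemia. Its brighter probe set read 6.59 and 7.15, a difference of 0.55 or 1.47-fold higher, the largest difference among the members in LM8. Its other probe set lay below the array median at 3.60 and 3.72, a difference of 0.12 at a level with little signal over background. The mean of both Phex probe sets differed by 0.34. The spike-ins added before labelling were higher in the same array by a median of 0.14, and their part in the higher values of Alpl, Phex and Ibsp was not tested.

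The receptor gene Pth1r, through which parathyroid hormone and its related peptide act on osteoblasts, read 10.93 in LM8 control cells and 10.75 after knock-down. The difference of -0.18, or 1.13-fold lower, exceeded the median SD between probe sets but not its upper percentile of 0.28. It lay within the range of most kept genes. Pth1r was at the 94.3 percentile of the control array and the 93.5 percentile of the knock-down array.

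The matrix protein genes measured in LM8, Ibsp and Dmp1, belong to a cluster of genes for acidic phosphoproteins of bone and tooth. In the RefSeq table the protein-coding genes Dmp1, Ibsp, Mepe and Spp1 follow each other on mouse chromosome 5 with no other protein-coding gene between them. Ibsp, which encodes bone sialoprotein, a nucleator of hydroxyapatite, read 9.52 and 9.78 on its brighter probe set, a difference of 0.26 or 1.19-fold higher. The other Ibsp probe set read 8.84 and 9.06, a difference of 0.21, so the pair of probe sets pointed the same way with nearly the same size. Dmp1, which encodes a regulator of mineralization made mainly by osteocytes, read 6.56 and 6.46 on its brightest probe set, a difference of -0.095, smaller than the SD between probe sets. The other Dmp1 probe sets, at 5.32 and 5.28 and at 5.00 and 4.86, were at or under the array median, with differences of -0.042 and -0.14. By their names the brightest is marked as shared (_s_at) and the next as cross-hybridising (_x_at). Only the dimmest carries no mark. Mepe, the neighbour of Ibsp, lay close to the median at 5.35 and 5.25, a difference of -0.093. Mepe passed the filter through its control value only, and Spp1 of the cluster was not analysed in LM8. Within this cluster the difference of Ibsp was thus positive. Those of Dmp1 and Mepe were negative but smaller than the median SD between probe sets.

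In A375M the members split by level. The brightest probe sets of SPP1, RUNX2, PHEX and DLX5 lay above the median of both arrays, PTH1R did so in the knock-down array alone, and those of ALPL, IBSP, SP7 and DMP1 lay below it in both. That is 4 of 9 members above the median in both arrays, where 65.9% of all 19775 named A375M genes were. In LM8 it was 7 of 7, with Dmp1 only through marked probe sets, beside 61.8%, and the difference between the lines was not tested. The gene sets differ, since RUNX2 and SPP1 were not analysed in LM8. Of the genes measured in both lines, only PHEX and DLX5 lay above the median in both A375M arrays. The arrays are different designs, so this compares places within each array and not levels between lines. None of the 5 kept members differed by 1.5-fold or more on its brightest probe set, against 0.748% of the 13244 kept A375M genes at 1.5-fold and 0.128% at 2-fold. PTH1R, DLX5 and SPP1 read higher, and PHEX and RUNX2 lower by less than the SD between probe sets, which is 3 of 5 higher against 29.0% of kept genes. PTH1R passed the filter through its knock-down value only, so this count and the median over the kept members, 0.13, carry that selection and support nothing. Over all 9 measured members the median was 0, as it was over all kept genes.

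**Figure D2:**
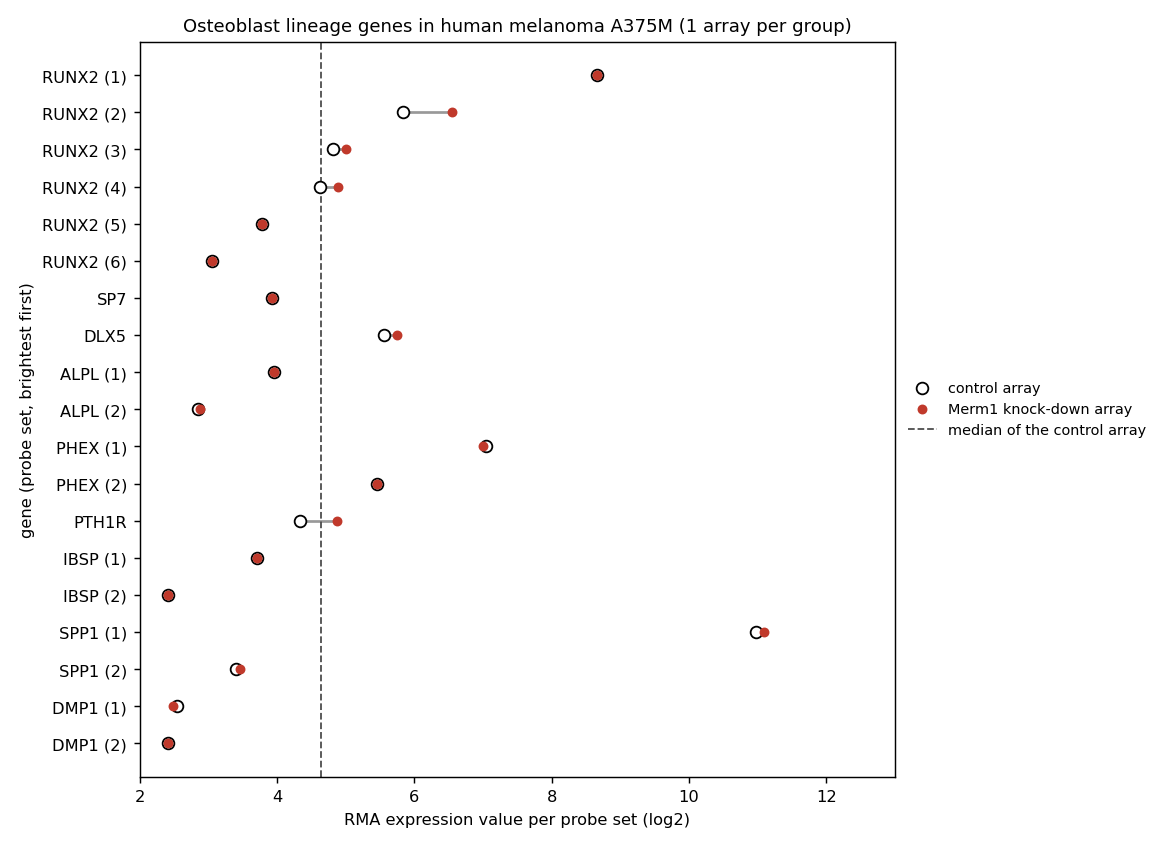
RMA expression value (log2) on the horizontal axis for each of the 19 A375M probe sets of 9 osteoblast lineage genes, with an open circle for the control array, a filled circle for the knock-down array and a dashed line at the median of the control array (4.64). The circles coincide for the 8 probe sets with identical values, and 10 of the 19 lie to the left of the median in both arrays.

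Repeated values limit what the A375M differences can show. Of the 19 member probe sets, 8 were identical between the arrays, 8 read higher and 3 lower, where 45.4% of all A375M probe sets were identical. In 18 of the 19 the knock-down value, and in 13 the control value, was also the value of at least 1 other probe set of the array. In LM8 this held for the knock-down value of 2 of the 11 and for no control value. The share of recurring values over all probe sets was not computed, so these counts cannot set the members apart from the rest of each array. IBSP and DMP1 each had a probe set at 2.42 in both arrays, a value that 687 other probe sets shared in the control array. No label states which step made these repeated values.

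RUNX2, the master transcription factor of the osteoblast lineage, had 6 probe sets in A375M, and they did not move together. The brightest read 8.66 in both arrays, a difference of -0.0052. The next brightest read 5.83 under control and 6.54 after knock-down, a difference of 0.71 or 1.64-fold higher, the only 1 of the 19 member probe sets at or above 1.5-fold. Among all kept A375M probe sets with 1 symbol 0.324% were at least 1.5-fold higher. Its control value was shared with 82 other probe sets and its knock-down value with 51. The next RUNX2 probe sets, at 4.81 and 5.01 and at 4.62 and 4.88, differed by 0.20 and 0.26, and the dimmest, at 3.78 and 3.06, were identical in both arrays. The mean over the 6 probe sets differed by 0.19 and the mean over the 4 that reached the median in at least 1 array by 0.29. The probe set at 4.62 and 4.88 is among those 4 through its knock-down value only, so the 0.29 carries that selection. The value for RUNX2 thus differed between its brightest probe set and the mean over all 6.

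Of the other transcription factors, DLX5 lay above the A375M median and SP7 below it. SP7 read 3.93 in both arrays, below the median, where there is little signal over background. DLX5 read 5.55 and 5.74, a difference of 0.19 or 1.14-fold higher, and its knock-down value was shared with 106 other probe sets.

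Of the enzymes and the receptor, PTH1R had the largest A375M difference on a brightest probe set. It read 4.34 in the control array, below the median, and 4.87 in the knock-down array, just above it, a difference of 0.53 or 1.44-fold higher. The knock-down value was shared with 128 other probe sets, and the size of a difference that starts below the median is imprecise. PHEX read 7.04 and 6.99 on its brighter probe set, a difference of -0.044, and 5.45 in both arrays on the other. ALPL read 3.96 in both arrays on its brighter probe set and 2.85 and 2.89 on the other.

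Among the matrix proteins, SPP1 was the one with a bright A375M probe set. SPP1 encodes osteopontin, a secreted phosphoprotein that is made by many cell types and tumours besides bone. It read 10.97 under control and 11.10 after knock-down, a difference of 0.13 or 1.09-fold higher, at the 97.5 and 97.8 percentiles of its arrays. The name of this probe set marks it as shared (_s_at). The other SPP1 probe set, marked as cross-hybridising by its name, lay below the median at 3.40 and 3.46. IBSP read 3.71 in both arrays on its brighter probe set, and DMP1 read 2.55 and 2.48. The probe set that lists BGLAP beside PMF1 and PMF1-BGLAP read 4.62 in both arrays, just below the median.

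**Figure D3:**
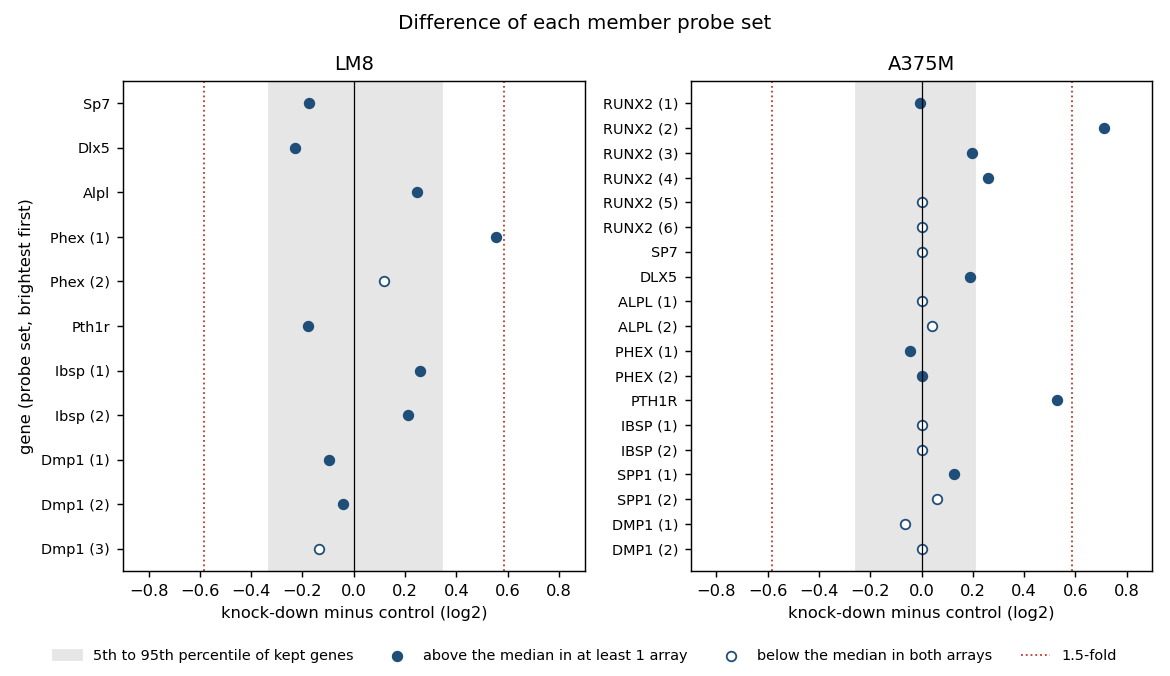
Difference between knock-down and control (log2, horizontal axis) for each member probe set in LM8 and A375M, filled where the probe set exceeded the array median in at least 1 array and open where it did not, with the 5th to 95th percentile range of kept genes shaded and dotted lines at 1.5-fold. The brighter Phex probe set in LM8 and 3 A375M probe sets, of RUNX2 (2 of its 6) and PTH1R, lie outside the shaded range, and the RUNX2 value of 0.71 alone lies past 1.5-fold.

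Other genes of the osteoblast program were taken from lists. Of the bone matrix and mineral genes, 12 of 16 kept in LM8 read higher and 4 lower, with a median of 0.16 beside 0.015 for all kept genes. Of all kept LM8 genes 53.8% read higher, and 2.47% differed by at least 1.5-fold. Mgp, an inhibitor of calcification, read 9.88 and 11.03, a difference of 1.15, and Postn, the matrix protein periostin, read 9.82 and 10.96, a difference of 1.15, and these were the genes of the list past 1.5-fold. Ogn, a small leucine-rich proteoglycan, differed by 0.57 and 0.56 on its probe sets, and the phosphate transporter gene Slc20a2 by 0.56 and 0.23. In A375M the list had 5 of 13 kept genes higher, 6 lower and 2 identical, with a median of 0. Of all kept A375M genes 29.0% were higher, 40.3% lower and 30.8% identical. MGP was its largest difference there at 0.58, from 12.36 to 12.94, followed by SLC20A2 at -0.36, COL1A2 at -0.28 and SLC20A1 at 0.15, the last with another probe set at -0.27.

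The other transcription regulators of the lineage had 6 of 15 kept genes higher and 9 lower in LM8, with a median of -0.048. Among all kept LM8 genes 53.8% were higher and 2.47% differed by at least 1.5-fold. Bhlhe40, a basic helix-loop-helix repressor gene, read 9.61 and 8.64, a difference of -0.97 and the only one past 1.5-fold. Sox4 differed by -0.37 with its 5 kept probe sets running from -0.59 to 0.13, and the AP-1 gene Junb by -0.32. Cbfb, which encodes the partner subunit that RUNX proteins need to bind DNA stably, differed by 0.31. In A375M 4 of 15 were higher, 6 lower and 5 identical, none past 1.5-fold, with FOSL1 at -0.28, ZNF521 at -0.15, HEY1 at -0.13 and LEF1 at 0.035. Among all kept A375M genes 29.0% were higher, 40.3% lower and 30.8% identical, and 0.748% differed by at least 1.5-fold.

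Signals and receptors of osteoblasts went in both directions in LM8, with 12 of 25 kept genes higher, 13 lower and a median of -0.011. The share of all kept LM8 genes that read higher was 53.8%. The integrin subunit gene Itgb3 differed by 0.78, although its control value of 4.93 lay below the array median. The Wnt receptor gene Fzd1 read 9.28 and 9.84, a difference of 0.56. Nog, which encodes the BMP antagonist noggin, differed by -0.55, with a knock-down value below the median. The growth factor gene Igf1 differed by -0.49, with 4 kept probe sets from -0.49 to -0.035. Itgb3 was kept through its knock-down value only and Nog through its control value only. The LM8 counts and median of this list carry that selection. Over all 33 measured genes of the list the LM8 median was also -0.011. In A375M 6 of 27 were higher, 13 lower and 8 identical, beside 29.0%, 40.3% and 30.8% of all kept A375M genes. BMP7 differed by 0.60, with 4 kept probe sets from 0 to 0.66, ITGB3 by -0.32 with probe sets of both signs, WNT5A by -0.28 and WNT10B by -0.21.

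Of the osteocyte genes 4 of 7 were kept in each line. In LM8 the Wnt inhibitor gene Dkk1 read 5.60 and 4.67, a difference of -0.94 that ended below the array median, and the secretory kinase gene Fam20c differed by 0.25 and 0.39 on its probe sets. Capg, an actin-capping protein gene, differed by 0.025. In A375M all 4 kept genes read lower on their brightest probe sets, beside 40.3% of all kept genes, with a median of -0.095. MEPE passed the filter through its control value only, so this count and this median carry that selection and support nothing. Over all 7 measured osteocyte genes the A375M median was -0.036. CAPG was at -0.50 and DKK1 at -0.14. FAM20C, at -0.048 with kept probe sets up to 0.029, and MEPE, at -0.036, differed by less than the SD between probe sets.

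**Figure D4:**
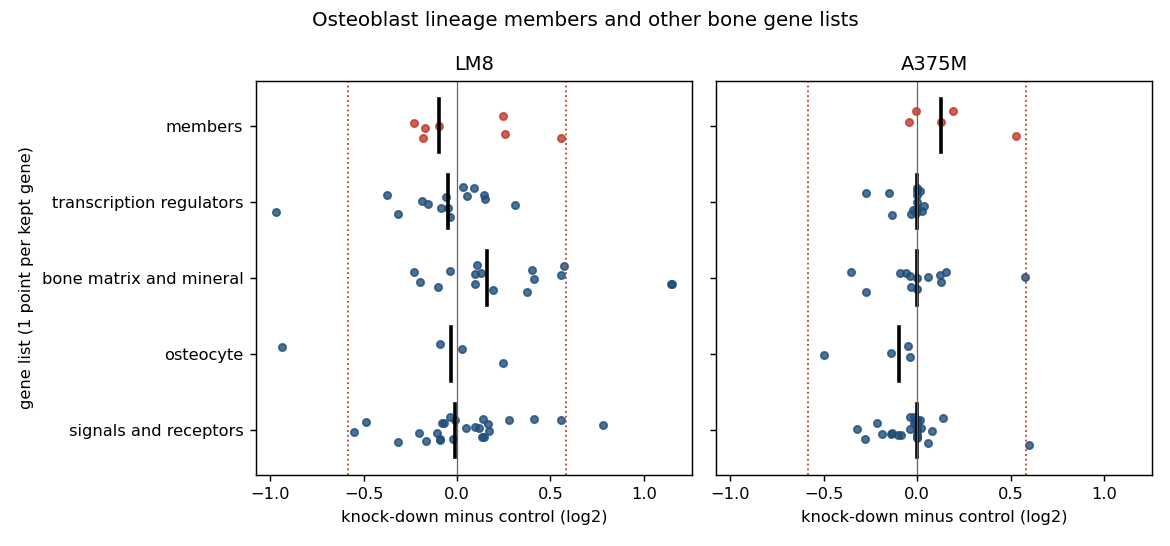
Difference between knock-down and control (log2, horizontal axis) for each kept gene of the osteoblast lineage members and of 4 other bone gene lists in LM8 and A375M, with a black bar at the median of each list and dotted lines at 1.5-fold. The bone matrix and mineral list in LM8 has its median at 0.16 and Mgp and Postn at 1.15, while the medians of 3 of the 4 other lists in A375M lie at 0.

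Markers of other cell types were set beside these levels. In LM8 the osteoclast list had 1 of 9 measured genes above the median in both arrays, the cathepsin gene Ctsk at 9.28 and 9.23. The leukocyte list had 2 of 7, the melanocyte list 3 of 10, the adipocyte list 2 of 6, the chondrocyte list 5 of 12 and the smooth muscle list 4 of 5, among them Acta2 at 12.98 and 12.87. Of all named LM8 genes 61.8% lay above the median in both arrays. The summed level of a list, as log2 of the summed linear values, moved from 13.20 to 13.22 for the members, from 9.61 to 9.60 for osteoclast and from 8.16 to 8.03 for leukocyte markers. It moved from 12.54 to 12.87 for chondrocyte, 7.65 to 7.80 for adipocyte, 8.83 to 8.94 for melanocyte and 13.03 to 12.92 for smooth muscle markers. The collagen genes Col1a1 and Col1a2, the main matrix of bone, read 11.16 and 11.57 and 14.63 and 14.73 on their brightest LM8 probe sets. The part of these markers in the members' differences was not tested, and a change in the share of cells and a change in RNA per cell cannot be told apart in bulk RNA. In A375M the melanocyte list had 8 of 9 genes above the median in both arrays, beside 65.9% of all named A375M genes. The osteoclast list had 4 of 7, the chondrocyte list 7 of 12, the adipocyte list 4 of 8, the leukocyte list 3 of 6 and the smooth muscle list 3 of 5. These counts take no account of how far a gene lay above the median.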

How the data were processed

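Total RNA of control and knock-down cells of 2 lines, LM8 and A375M, 1 array each, was labelled with biotin and hybridised to Affymetrix arrays, per the labels' protocols. The values deposited by the authors are log2 RMA expression values, 1 per probe set, as the submitters' processing notes name RMA. RMA equalises the distributions of arrays, so a global shift would not be seen. Software and version are not given in the sources used here. With 1 array per group, differences are descriptions, and likeness of patterns between genes was not computed. Groups came from the sample titles. Gene names came from the platform annotation of probe sets that carry exactly 1 symbol. Kept genes exceeded the 50th percentile (median) of their array, control probe sets left out, in 1 array or both. Named genes were all members and their probe sets, Bud23, and in each list of bone genes up to 4 kept genes with the largest absolute difference plus all at least 1.5-fold different. Col1a1, Col1a2, Mepe, Capg, Ctsk and Acta2 were also named as markers or neighbours. Members and lists were chosen with earlier results of these data known. Alternatives changed the filter, the scaling, the probe set choice or added 32 to linear values. Python 3.11.15, pandas 2.3.3 and statsmodels 0.14.6 (loess, span 0.4) were used, and counting was checked on simulated data.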

Additional observations from a re-analysis of the deposited data

Results flagged for a closer look

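Members whose difference between knock-down and control had opposite signs in the 2 lines were Pth1r, Phex and Dlx5. With 1 array per group the difference between lines was not tested. ALPL, IBSP and SP7 were identical in both A375M arrays on their brightest probe sets, so no sign could be compared. The share of opposite signs over all genes measured in both lines was not computed. Pth1r read -0.18 in LM8 and PTH1R 0.53 in A375M, a gap of -0.71, where the human control value lay below the array median. Phex read 0.55 and PHEX -0.044, a gap of 0.60, and the human value was smaller than the SD between probe sets of 0.071. Dlx5 read -0.23 and DLX5 0.19, a gap of -0.42, and the human knock-down value was shared with 106 other probe sets. PTH1R was kept in A375M through its knock-down value only. The arrays of the lines are of different designs.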

How the results depend on the processing

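No paired analysis was possible because each group held 1 array. The counts of members above the array median and past 1.5-fold or 2-fold stayed within 1.5 times their values under every alternative run, 3-fold included. The median difference of the LM8 members turned from -0.095 to 0.036 without the probe sets marked _x_at or _s_at, since Dmp1 then falls below the filter and 6 members remain. The A375M median of 0.13 was 0 without the filter, -0.0052 with the filter at the 70th percentile (3 members) and -0.0052 without marked probe sets (3 members). Over the alternatives except the filters, each of the 7 LM8 members kept its sign. Phex ran from 0.34 to 0.57, Ibsp from 0.23 to 0.27, Alpl from 0.23 to 0.25 and Dlx5 from -0.25 to -0.22. Pth1r ran from -0.19 to -0.17, Sp7 from -0.19 to -0.16 and Dmp1 from -0.14 to -0.068. All alternatives reuse the same arrays, so these ranges do not measure the precision of a difference. Alpl, Dlx5, Pth1r and Sp7 had 1 probe set each, so changes of probe set choice left them unchanged. In A375M PTH1R ran from 0.23, with 32 added to linear values, to 0.53, DLX5 from 0.12 to 0.19 and SPP1 from 0.093 to 0.15. RUNX2 ran from -0.035 to 0.29 and ALPL from -0.030 to 0.020. All A375M probe sets of DLX5, SPP1 and ALPL are marked _x_at or _s_at, so their ranges hold no value without marked probe sets. Centring arrays on their medians gave probe sets identical in both A375M arrays a difference of -0.030. The mean over probe sets that reached the median was added after seeing the data.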

Other observations

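Cartilage genes, markers of the neighbouring skeletal lineage, differed in both directions in LM8. Cnmd, which encodes the cartilage glycoprotein chondromodulin, read 6.29 under control and 3.95 after knock-down, a difference of -2.34 that ended below the array median. Sox6, a transcription factor gene of chondrocytes, differed by -0.76, with its 4 kept probe sets from -0.82 to -0.41. The cartilage collagen genes went the other way, with Col9a1 at 0.65 and 0.21 on its probe sets and Col2a1 at 0.38, from 12.00 to 12.38. In A375M SOX6 differed by -0.53, with 4 kept probe sets from -0.59 to 0.19, ACAN by -0.36 and COL11A1 by 0.79, with its other kept probe set at 1.18. Mgp read higher in the knock-down array of both lines, by 1.15 in LM8 and 0.58 in A375M, each on 1 kept probe set.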
